A study of Mus musculus with 2 samples.

Results

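Mpo, Ctsg, Elane, Prtn3 and Ms4a3 are 5 genes of the myeloid granule programme, taken by symbol from the 27998 gene rows of a single-cell RNA count matrix of mouse multipotent progenitors. Each of the 5 symbols matched 1 row: ENSMUSG00000009350 for Mpo, ENSMUSG00000040314 for Ctsg, ENSMUSG00000020125 for Elane, ENSMUSG00000057729 for Prtn3 and ENSMUSG00000024681 for Ms4a3. The study set Spp1-/- C57BL/6 mice, which lack osteopontin, against WT C57BL/6 mice. All mice had received thioglycollate, an irritant that draws leukocytes into the peritoneal cavity, 20 h before bone marrow was taken, so neither group gives an untreated state. The sorted cells were negative for lineage antigens and positive for Sca-1, c-kit, CD34 and the antigen labelled Flt3L, and were captured with the 10x Genomics 3' method. The matrix held 2 libraries, told apart by the suffix of the cell barcode. No label tied a suffix to a genotype, so the libraries are called library 2 and library 1 and no difference between them is given a genotype. With 1 library for each genotype there was no replicate, and no test between them was possible. Every 95% interval given here covers counting error only. The labels do not give the number of mice behind a library.

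Neutrophils and monocytes carry preformed microbicidal proteins in primary (azurophil) granules, and the genes for these proteins are switched on early, in granulocyte-monocyte progenitors, and largely off again before the cell matures. Mpo encodes myeloperoxidase, the haem enzyme that makes hypochlorous acid. Elane, Prtn3 and Ctsg encode neutrophil elastase, proteinase 3 and cathepsin G, serine proteases that cathepsin C activates by removing a short leader peptide. Ms4a3 encodes a membrane-spanning protein of the MS4A family whose transcript marks granulocyte-monocyte progenitors in the mouse. C/EBP factors, PU.1, RUNX1 and MYB are known regulators of this programme.

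Prtn3 and Elane are neighbours on chromosome 10, which makes their upstream sequences a natural pair to set side by side. Prtn3 was the most widely detected of the 5 genes and Elane was among the least widely detected. On GRCm38 (GENCODE M21), Prtn3 lies at chr10:79874476-79883174 and Elane at chr10:79886247-79888215, both on the plus strand, with 3072 bases between them. The 250 bases before each RefSeq start (GRCm38.p6) are chr10:79879417-79879666 for Prtn3 and chr10:79886062-79886311 for Elane, both on the plus strand. The RefSeq starts lie downstream of the GENCODE starts. All of the Prtn3 stretch and the end of the Elane stretch therefore lie inside the GENCODE spans. Capitals mark GAGGAA, the core letters of the site bound by PU.1 and related ETS factors.

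Prtn3: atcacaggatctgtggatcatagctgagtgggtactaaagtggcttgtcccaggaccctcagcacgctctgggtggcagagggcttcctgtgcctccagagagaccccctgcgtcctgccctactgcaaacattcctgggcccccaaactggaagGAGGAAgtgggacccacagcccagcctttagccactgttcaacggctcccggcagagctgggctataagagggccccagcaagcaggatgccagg
Elane: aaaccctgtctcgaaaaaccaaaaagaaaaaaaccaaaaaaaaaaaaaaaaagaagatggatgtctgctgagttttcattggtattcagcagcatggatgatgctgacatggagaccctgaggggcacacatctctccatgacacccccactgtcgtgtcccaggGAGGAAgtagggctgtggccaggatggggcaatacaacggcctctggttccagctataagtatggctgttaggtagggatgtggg

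Each sequence held 1 GAGGAA on the strand of the gene, 95 bases before the RefSeq start of Prtn3 and 85 bases before that of Elane. The same search was made for all 5 genes in windows from 250 bases before to 50 bases after the RefSeq start, on both strands, where the letters occurred in 28.3% of 32851 promoter windows. Mpo held 2 copies of GAGGAA, 247 and 224 bases before its start. Ctsg held 1 copy 216 bases before its start and Ms4a3 held 1 copy 35 bases after its start. The C/EBP-type letters TTNNGNAA were found in 1 of the 5 windows, that of Ms4a3, with 2 copies, against 40.7% of all windows. The MYB-type letters AACNG were found 3 times in the Prtn3 window, 3 times in Ctsg, 2 times in Elane, 1 time in Mpo and not in Ms4a3, against 80.3% of all windows. The RUNX-type letters TGTGGT were found in 1 window, that of Ctsg, against 16.8% of all windows. These matches are descriptions of letters, and the presence of the ETS-type letters was shared by all 5 genes whether they were widely or narrowly detected.

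The remaining genes lie apart: Mpo at chr11:87793581-87804413 on the plus strand, Ctsg at chr14:56099881-56102574 on the minus strand and Ms4a3 at chr19:11629496-11640851 on the minus strand. Their transcripts' last 300 bases, where a 3' method reads, shared no 50-base stretch with a transcript of another gene. Prtn3 overlaps the antisense gene Plppr3 only at its 5' end and Mpo overlaps the antisense gene Gm11505. Whether the counting used strand is not stated in the labels, so reads of such pairs cannot be told apart where they overlap. Plppr3 had 1448 unique molecular identifiers (UMIs, each standing for 1 captured transcript molecule) in library 2 and 775 in library 1, and Gm11505 had 2 and 3.

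After removal of barcodes with fewer than 500 genes or with 10% or more mitochondrial UMIs, 4570 cells of library 2 and 3253 cells of library 1 were kept, 7823 in all. The median cell had 3836 UMIs in library 2 and 2830 UMIs in library 1. Because a deeper cell shows more genes, shares of cells were also taken after thinning each cell to 2000 UMIs, which left 4016 cells of library 2 and 2444 of library 1. Of the sort markers, Cd34 was seen in 80.4% of cells of library 2 and 67.8% of library 1, Ly6a (Sca-1) in 59.0% and 54.4%, Flt3 in 41.6% and 30.3%, and Kit in 13.6% and 10.1%. Of the lineage markers that the sort removes, Cd3e and Ly6g had no UMI in either library. In all, 32 barcode sequences occurred in both libraries.

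The 5 genes fell into a broad and a narrow class. Prtn3 was seen in most progenitors, Mpo and Ctsg in a minority, and Elane and Ms4a3 in about 1 cell in 100. At 2000 UMIs per cell, Prtn3 had a UMI in 80.1% of cells of library 2 (95% Clopper-Pearson interval 78.8 to 81.3%) and 80.5% of library 1 (78.9 to 82.0%). Mpo had one in 14.9% of cells of library 2 (13.9 to 16.1%) and 17.4% of library 1 (15.9 to 19.0%). Ctsg had one in 14.8% of cells of library 2 (13.7 to 16.0%) and 13.4% of library 1 (12.1 to 14.8%). Prtn3 stood far above both, and the intervals of Mpo and Ctsg overlapped in library 2 but not in library 1. Ms4a3 was seen in 1.07% of thinned cells of library 2 (0.776 to 1.44%) and 1.19% of library 1 (0.796 to 1.70%). Elane was seen in 0.921% of library 2 (0.649 to 1.27%) and 0.859% of library 1 (0.533 to 1.31%). These last intervals overlapped, so the order of Elane and Ms4a3 was not resolved. Without thinning, the shares in library 2 and library 1 were 87.3% and 83.2% for Prtn3, 23.3% and 21.1% for Mpo, 20.6% and 15.5% for Ctsg, 1.97% and 1.57% for Ms4a3, and 1.64% and 1.20% for Elane. At least 1 of the 5 genes had a UMI in 83.0% of thinned cells of library 2 (81.8 to 84.2%) and 83.6% of library 1 (82.1 to 85%).

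Levels over all kept cells had the broad order of the shares, with Prtn3 highest, Mpo and Ctsg between, and Elane and Ms4a3 lowest. Within these pairs of genes the levels did not follow the shares. In UMIs per 1000000 UMIs of the library (CPM), Prtn3 stood at 1285 in library 2 (95% Poisson interval 1269 to 1301) and 1289 in library 1 (1267 to 1311). Ctsg stood at 229 CPM in library 2 (222 to 236) and 174 CPM in library 1 (166 to 182), and Mpo at 150 CPM (145 to 156) and 167 CPM (159 to 175). Elane stood at 77.3 CPM in library 2 (73.4 to 81.4) and 61.3 CPM in library 1 (56.5 to 66.3). Ms4a3 was lowest, at 25.7 CPM (23.4 to 28.1) and 21.6 CPM (18.9 to 24.7). Elane was thus more abundant than Ms4a3 in the pooled RNA of each library, while the shares of cells with the 2 genes overlapped. That order rested on 15 cells described below, which were chosen by their Elane count. Without them it was reversed, with Elane at 4.50 CPM and Ms4a3 at 8.79 CPM in library 2. In library 1 they then stood at 5.46 and 8.14 CPM. The method counts 3' ends, so these levels need no correction for transcript length.

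A detection ratio set the cells with a UMI against the number expected had the gene's UMIs been spread over cells in proportion to depth. Prtn3 had the highest ratio of the 5, 0.899 in library 2 and 0.880 in library 1, but lay below the median of 0.990 and 0.985 over the 7526 genes with at least 200 UMIs. Only 1.65% of those genes in library 2 and 1.12% in library 1 had a lower ratio than Prtn3. Mpo had a ratio of 0.531 in library 2 and 0.545 in library 1, Ctsg 0.358 and 0.388, and Ms4a3 0.199 and 0.243. Elane had 0.0621 in library 2 and 0.0705 in library 1, and none of the 7526 genes had a lower ratio in either library. A ratio under 0.75, a value chosen after the ratios were seen, was found for 4 of the 5 genes in each library, against 0.412% of all genes in library 2 and 0.425% in library 1. Much of the narrowness of Elane and Ms4a3 lay in a few cells described next. Without those cells the ratio of Elane was 0.783 in library 2 and 0.625 in library 1 and that of Ms4a3 was 0.499 and 0.570. Ctsg then had the lowest ratio of the 5, at 0.418 in library 2 and 0.463 in library 1. The ratio nears 1 when a gene has few UMIs, because most then lie in separate cells. Outside those cells Elane had 84 UMIs in library 2 and 55 in library 1, and Ctsg 3285 and 1375. This order therefore does not rank how restricted the genes were there. Mpo stood at 0.606 and 0.637 and Prtn3 at 0.901 and 0.883.

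**Figure D1:**
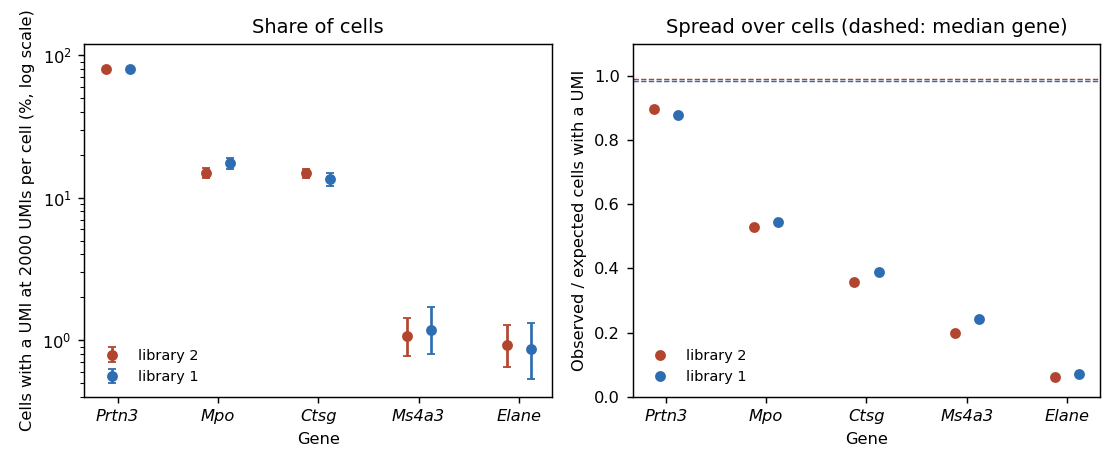
Breadth of detection of the 5 genes in library 2 and library 1. The left panel gives the percentage of cells with a UMI at 2000 UMIs per cell on a log axis, with 95% Clopper-Pearson intervals, and the right panel gives observed over expected cells with a UMI, the dashed line marking the median gene. Prtn3 lies near 80% of cells and Elane near 0.9%, and Elane has the lowest ratio, 0.0621 in library 2 and 0.0705 in library 1.

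The UMIs of Elane lay almost wholly in a handful of cells. Its single richest cells held 415 UMIs in library 2 and 137 in library 1, and 3 cells in each library held 50% of its UMIs. For Ms4a3, 5 cells of library 2 and 4 of library 1 held 50%. For Ctsg the number was 84 cells and 50 cells, for Mpo 133 and 87, and for Prtn3 726 and 522. The richest 1% of cells held 98% of Elane UMIs in library 2 and 99% in library 1, 90.9% and 91.8% of Ms4a3, 39.8% and 43.4% of Ctsg, 33.6% and 35.4% of Mpo, and 10.1% of Prtn3 in each library. The order of concentration was the same in both libraries, from Elane through Ms4a3, Ctsg and Mpo to Prtn3. Among cells with a UMI, the median was 4 UMIs of Prtn3 in library 2 and 3 in library 1, 2 of Ctsg in each, and 1 of Mpo, Elane and Ms4a3 in each. The largest single entry in the matrix, 436 UMIs, was a Ctsg count in a cell of library 2.

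**Figure D2:**
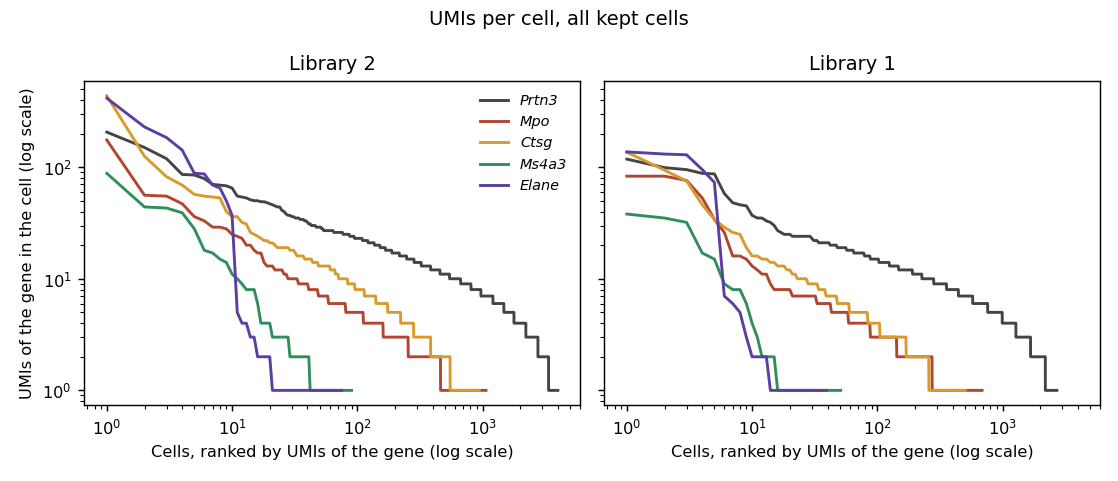
UMIs of each gene per cell in kept cells, ranked from the richest cell, on log axes, for library 2 and library 1. The Elane curve starts at 415 UMIs in library 2 and 137 in library 1 and drops to 1-digit counts after 10 and 5 cells, whereas Prtn3 declines gradually along the whole axis of cells.

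The gap in the Elane curve set apart 15 of the 7823 cells (0.192%), 10 in library 2 and 5 in library 1, with at least 10 Elane UMIs. They are called Elane-rich here. The threshold was chosen after the counts were seen, so their Elane content is a description, and the cells are given no cell type name. The lowest Elane count inside was 37 in library 2 and 73 in library 1, and the highest outside was 5 and 7. The 15 cells shared no barcode sequence between libraries. Elane-rich cells held 94.2% of all Elane UMIs in library 2 and 91.1% in library 1, and 65.9% and 62.6% of Ms4a3. They held 23.4% and 21.9% of Ctsg, 17.9% and 19.5% of Mpo, and 4.07% and 3.45% of Prtn3.

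All 5 genes were high together in these cells. In library 2, with the median between the lowest and the highest cell, Elane ran from 37 through 87.5 to 415 UMIs, Ctsg from 36 through 56 to 436 and Prtn3 from 49 through 82 to 206. In the same cells Mpo ran from 20 through 34.5 to 175 UMIs and Ms4a3 from 11 through 23 to 88. The lowest Elane-rich cell of library 2 thus held 11 or more UMIs of every one of the 5 genes. In library 1, Elane ran from 73 through 129 to 137 UMIs, Ctsg from 34 through 75 to 136, Prtn3 from 58 through 88 to 118, Mpo from 34 through 76 to 83 and Ms4a3 from 15 through 32 to 38. The 5 genes together made up 1.74 to 7.54% of a cell's UMIs in library 2, with a median of 3.39%, and 3.6 to 5.99% in library 1, with a median of 3.91%. The Elane-rich cells were also deep, with 7408 to 17515 UMIs in library 2 and 6576 to 10676 in library 1. Per 10000 UMIs at equal depth, Ms4a3 reached 34.0 in Elane-rich and 0.0512 in other cells of library 2, and 36.0 and 0.0574 in library 1. Prtn3, the gene with the least contrast, reached 110 in Elane-rich and 11.2 in other cells of library 2, and 106 and 11.8 in library 1.

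What else these 15 cells carried was not used to choose them, although it comes from the same cells. Ly6a had a UMI in 1 of the 15, against 57.2% of other cells, Flt3 in 2 against 36.9% and Cd34 in 7 against 75.2%. Cd48, a progenitor marker listed with them, went the other way, in 12 of the 15 against 44.9%. Dntt, which encodes the lymphoid enzyme terminal transferase, had one in 2 against 51.1%. Kit had one in 1 of the 15 against 12.2% of other cells, a like share. These cells were deeper than the median cell. Ly6c2, a surface antigen gene of monocytes and their precursors, had a UMI in 14 of the 15 cells, against 1.1% of other cells. Hp, which encodes haptoglobin, had one in 14 against 4.29%, and Cebpe, a C/EBP factor needed for later granulocyte stages, in 11 against 0.0768%. S100a8, a calprotectin subunit abundant in neutrophils, had one in 9 against 0.640% of other cells. Of genes of later neutrophil stages, S100a9 had a UMI in 7 of the 15 against 0.653% of other cells, and Fcnb in 3 against 0%. Camp had one in 2 against 0.128%, Ngp in 1 against 0.179% and Chil3 in 1 against 0.0128%. Ltf and Ly6g had none in the 15 cells. Doublet scores from Scrublet had a median of 0.0483 in Elane-rich cells and 0.0942 in all cells of library 2, and 0.0357 and 0.100 in library 1. Scrublet called only 1 cell in each library, too few for the caller to have worked. Whether the Elane-rich cells were doublets was therefore not tested.

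In single cells Elane was seen together with Prtn3. At 2000 UMIs, all 37 Elane-positive cells of library 2 (100%, interval 90.5 to 100%) and all 21 of library 1 (83.9 to 100%) also had Prtn3, against 80.1% and 80.5% of all cells. Of these Elane-positive cells, 19 of 37 in library 2 (51.4%) and 13 of 21 in library 1 (61.9%) had Mpo. Ctsg was seen in 21 of 37 (56.8%) and 14 of 21 (66.7%), and Ms4a3 in 11 (29.7%) and 11 (52.4%). Without the Elane-rich cells, 27 of 27 Elane-positive cells of library 2 (87.2 to 100%) and 16 of 16 of library 1 (79.4 to 100%) had Prtn3, the interval of library 1 holding the 80.4% of all cells there. Mpo then stood at 33.3% in library 2 and 50% in library 1, and Ctsg at 40.7% and 56.3%. Ms4a3-positive cells had Prtn3 in 88.4% of 43 cells of library 2 (74.9 to 96.1%), an interval that held the share of all cells, and in 100% of 29 cells of library 1 (88.1 to 100%). They had Elane in 25.6% and 37.9%.

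Mpo and Ctsg overlapped in part. Of Mpo-positive cells, 35.8% of library 2 and 27.5% of library 1 had Ctsg, and of Ctsg-positive cells 36.1% and 35.7% had Mpo. Both were seen together in 215 cells of library 2, against 88.9 expected from the product of the separate shares, a ratio of 2.42. In library 1 they were seen together in 117 cells against 57.2, a ratio of 2.05. Most cells of each gene nevertheless lacked the other at this depth. Prtn3 was seen in 88.8% of Mpo-positive cells of library 2 and 87.6% of library 1, and in 90.1% and 91.5% of Ctsg-positive cells. These shares stood a few percentage points above the 80.1% and 80.5% of all cells.

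Counted per cell, the commonest state was Prtn3 alone, in 58.1% of thinned cells of library 2 and 57% of library 1. None of the 5 genes was seen in 17.0% of library 2 and 16.4% of library 1, and exactly 2 in 16.7% and 18.7%. Exactly 3 were seen in 4.81% and 4.46%. All 5 were seen in 11 cells of library 2 and 9 of library 1, of which 1 and 4 were outside the Elane-rich cells. Mpo without any of the other genes was found in 56 cells of library 2 (1.39%) and 48 of library 1 (1.96%), and Ctsg alone in 49 and 23 cells. Ms4a3 was alone in 3 cells of library 2, and Elane was never alone in either library.

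**Figure D3:**
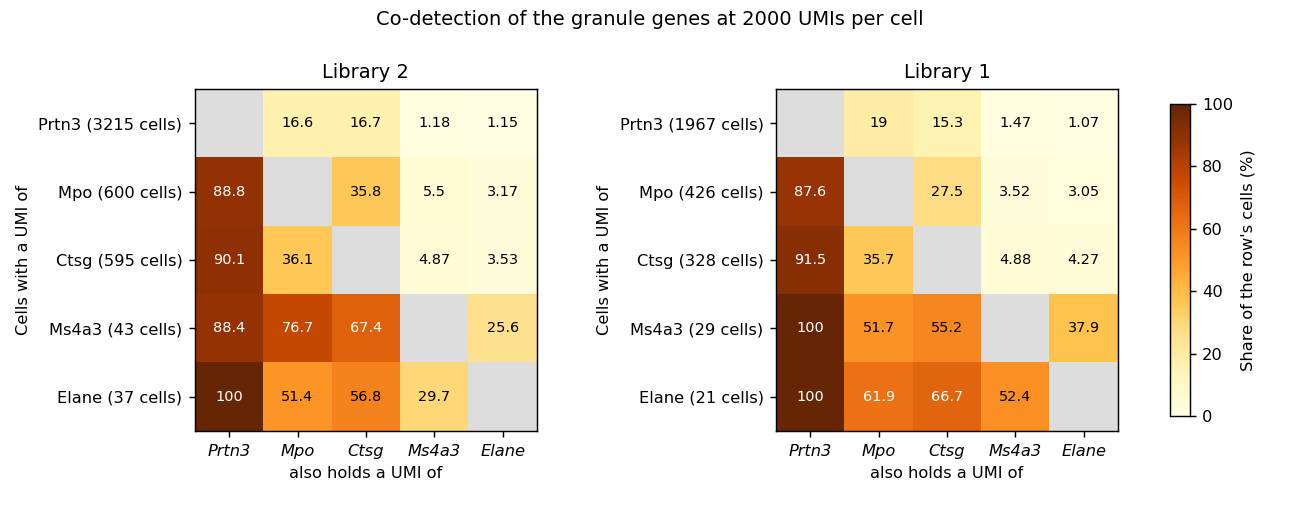
Co-detection of the 5 genes at 2000 UMIs per cell in library 2 and library 1. Each square gives the percentage of the cells with a UMI of the row's gene that also had a UMI of the column's gene. The Prtn3 column is 88.4% or more for Elane, Ms4a3, Mpo and Ctsg in library 2, and 100% for Elane in both libraries.

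Mpo and Ctsg became more frequent with the level of Prtn3, also when the Elane-rich cells were left out. In library 2, Mpo was seen in 8.36% of cells with no Prtn3 UMI, 11.4% with 1 to 2, 19.5% with 3 to 5, 31.8% with 6 to 9 and 52.9% with 10 or more. In library 1 the shares were 11.1%, 13.3%, 21.2%, 35.5% and 46.7%. Ctsg followed the same steps, with 7.37%, 11.7%, 18.2%, 36.0% and 55.9% in library 2 and 5.87%, 10.6%, 15.4%, 32.8% and 66.7% in library 1. Each step upward in Prtn3 came with a higher share of both genes in each library, the top bin holding 34 cells of library 2 and 15 of library 1. Elane was seen in 0 of 801 cells of library 2 and 0 of 477 of library 1 without Prtn3, which allows shares of up to 0.375% and 0.629% (3 cells of the total). In the top Prtn3 bin it was seen in 5.88% and 26.7%. All cells were at equal depth here, but a cell's UMIs of all genes share 1 total.

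Cells with a low count of Elane already differed from cells with none. Outside the Elane-rich cells, 65 cells of library 2 and 34 of library 1 had 1 to 9 Elane UMIs, and 55 and 26 of them had exactly 1. In thinned cells with such counts (63 in library 2 and 32 in library 1), Mpo per 10000 UMIs was 4.10 times that of cells without Elane in library 2 and 5.95 times in library 1. Ctsg was 5.41 times and 6.21 times that of cells without Elane, and Prtn3 2.08 times and 2.63 times. Mpo, Ctsg and Prtn3 were thus also higher in cells with few Elane UMIs, below the Elane-rich level. The part of depth in the choice of these cells was not tested.

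Lymphoid transcripts ran against the granule genes. Dntt is an early marker of lymphoid priming. Cells were binned by it at 2000 UMIs without the Elane-rich cells. Prtn3 in library 2 stood at 13.4 UMIs per 10000 in cells with no Dntt, 10.1 with 1 to 2, 6.78 with 3 to 5 and 3.9 with 6 or more. In library 1 it stood at 13.7, 10.4, 7.17 and 3.82. Prtn3 thus stepped down at every bin in each library, and the share of cells with it went with the level: 87.3%, 80.4%, 63.7% and 46.9% in library 2 and 86%, 78.5%, 68.4% and 43.6% in library 1. Ctsg stood at 1.66, 1.09, 0.494 and 0.307 per 10000 in library 2 and 1.38, 0.837, 0.430 and 0.318 in library 1. Mpo stood at 1.21, 0.940, 0.494 and 0.542 in library 2 and 1.41, 0.993, 0.594 and 0.909 in library 1, so that its last bin lay above the one before.

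**Figure D4:**
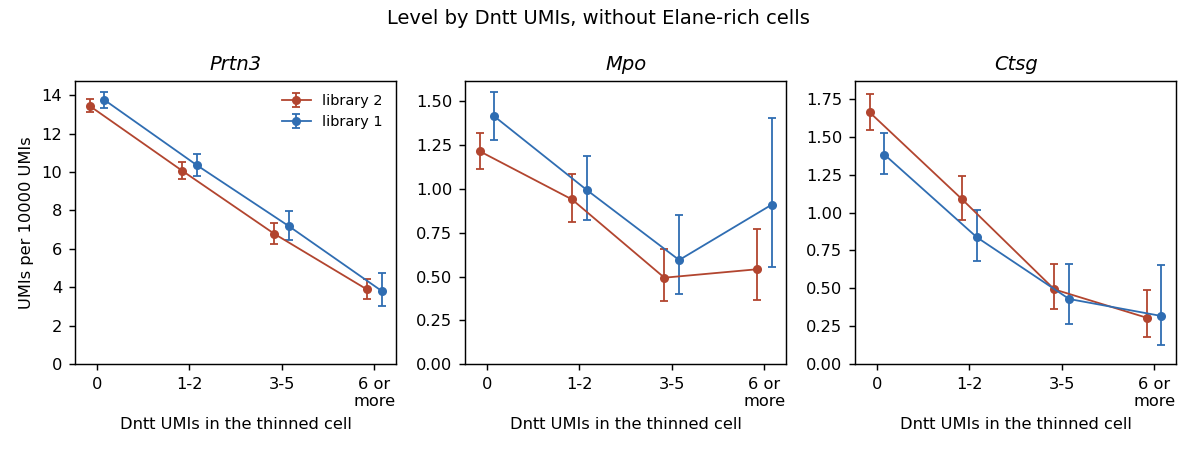
Prtn3, Mpo and Ctsg in UMIs per 10000 UMIs by the number of Dntt UMIs in cells thinned to 2000 UMIs, without the Elane-rich cells, in library 2 and library 1, with 95% Poisson intervals. Prtn3 steps down from 13.4 to 3.9 across the 4 bins in library 2 and from 13.7 to 3.82 in library 1.

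Over all thinned cells, Dntt-high cells (3 or more UMIs, 743 in library 2 and 354 in library 1) were set against cells without Dntt (2262 and 1480). Prtn3 was 0.412 times as high in Dntt-high as in Dntt-zero cells of library 2 (0.383 to 0.442) and 0.439 times in library 1 (0.396 to 0.484). Ctsg was 0.205 times as high in library 2 (0.156 to 0.265) and 0.239 times in library 1 (0.157 to 0.350), and Mpo 0.361 and 0.425 times. The summed granule UMIs were 0.365 times as high in library 2 and 0.405 times in library 1. Without the Elane-rich cells the values were 0.425 and 0.446 for Prtn3, 0.255 and 0.286 for Ctsg, 0.421 and 0.490 for Mpo, and 0.405 and 0.434 for the sum. Prtn3, Mpo and Ctsg were thus each 2-fold or more lower in both libraries, with and without the Elane-rich cells. Over all thinned cells such a fold was found for 2.22% of 7077 genes in library 2 and 3.18% of 5534 in library 1. The median gene stood at 0.965 and 0.963. Elane and Ms4a3 had too few UMIs outside the Elane-rich cells for such a count. In Dntt-high cells Elane had 1 UMI in library 2 and 0 in library 1, and Ms4a3 1 and 2. In Dntt-zero cells without the Elane-rich cells Elane had 24 UMIs in library 2 and 18 in library 1, and Ms4a3 35 and 25. Dntt-high and Dntt-zero cells share each cell's fixed total of 2000 UMIs.

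Rarer lymphoid transcripts also marked cells low in Prtn3, in ratios taken without the Elane-rich cells. In cells with a UMI of Il7r, the interleukin-7 receptor gene (110 in library 2 and 60 in library 1), Prtn3 was 0.292 times that of Il7r-negative cells in library 2 and 0.404 times in library 1. In cells with Ly6d, a marker of B-lineage priming (83 and 42 cells), it was 0.239 and 0.299 times that of Ly6d-negative cells. Prtn3 was still seen in 32.5% of Ly6d-positive cells of library 2 and 31.0% of library 1. Before thinning, Ly6d-positive cells had a median of 3584 UMIs in library 2 and 2802 in library 1, against 4106 and 3256 in Ly6d-negative cells. Mpo stood at 0.888 times in the Ly6d-positive cells of library 2 (0.495 to 1.47) and 0.689 times in library 1 (0.276 to 1.43), so a difference in Mpo was not detectable at this depth.

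Irf8, a factor of monocyte and dendritic cell fate, went with Ctsg more than with Prtn3. In bins of 0, 1, 2 to 3, and 4 or more Irf8 UMIs without the Elane-rich cells, Ctsg stood at 1.05, 2.27, 2.01 and 2.0 UMIs per 10000 in library 2 and 1.0, 1.48, 2.26 and 1.59 in library 1. Every bin with Irf8 lay above the bin without it in each library, although for 4 or more UMIs the ratio of 1.91 in library 2 (1.08 to 3.12) stood beside 1.59 in library 1 (0.635 to 3.31), whose interval held 1. Prtn3 stood at 11, 12.4, 11.1 and 7.0 in library 2 and 11.8, 12.5, 11.3 and 5.68 in library 1, lowest where Irf8 was highest (40 and 22 cells). In cells with 10 or more MHC class II UMIs, 6 in library 2 and 34 in library 1, Prtn3 was 0.373 (0.121 to 0.871) and 0.570 (0.417 to 0.762) times that of cells below this number, also without the Elane-rich cells.

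Cells with stem or more Car2 transcripts had Prtn3 close to that of other cells and lower Ctsg. These ratios, too, leave out the Elane-rich cells. In cells with 2 or more UMIs of a stem list (Hlf, Mecom, Procr, Mllt3 and Meis1; 201 cells of library 2 and 117 of library 1), Prtn3 was 1.0 and 0.947 times that of other cells. In the same cells Ctsg was 0.528 times that of other cells in library 2 (0.349 to 0.769) and 0.338 times in library 1 (0.154 to 0.646). Mpo was 0.601 times (0.386 to 0.893) and 0.700 times (0.424 to 1.09), the last interval holding 1. In cells with 2 or more UMIs of a megakaryocyte-erythroid list (824 and 359 cells), Prtn3 was 0.953 times (0.904 to 1.0) and 0.887 times (0.821 to 0.958) that of other cells, Mpo 0.313 times (0.237 to 0.407) and 0.599 times (0.445 to 0.792), and Ctsg 0.281 times (0.217 to 0.359) and 0.354 times (0.238 to 0.509). That list was carried by Car2, which gave 97.6% of its UMIs in each library, so these are cells with more Car2. Car2 itself had a UMI in 64.2% of all kept cells of library 2 and 53.3% of library 1. Prtn3 was seen in 81.6% of them in library 2 and 82.7% in library 1. Those shares lay close to the 80.1% and 80.5% of all thinned cells, whereas Mpo was seen in 6.80% and 11.7% and Ctsg in 6.43% and 6.13% of the cells with more Car2.

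Cells with G2 and mitosis transcripts had more Ctsg and Mpo, and cells with S-phase transcripts more Ctsg. The ratios in this paragraph are without the Elane-rich cells. In cells with 5 or more UMIs of a G2 and mitosis list (1358 in library 2 and 483 in library 1), Ctsg was 3.17 times that of cells with fewer than 5 UMIs of both cycle lists in library 2 (2.66 to 3.79) and 2.05 times in library 1 (1.65 to 2.54). Mpo was 2.51 times (2.09 to 3.03) and 1.40 times (1.13 to 1.72) as high, and Prtn3 1.27 times (1.21 to 1.34) and 1.0 times (0.934 to 1.07). In cells with 5 or more UMIs of an S-phase list, Ctsg was 2.09 times (1.75 to 2.50) and 1.53 times (1.25 to 1.86) as high. Mpo was 1.71 times (1.42 to 2.07) and 1.18 times (0.986 to 1.42), the last interval holding 1, and Prtn3 1.18 and 1.02 times. All counts were at 2000 UMIs, but before thinning the G2 and mitosis cells had a median of 5158.5 UMIs in library 2 and 3965 in library 1, against 3164 and 3019 in cells with few cycle transcripts. The part of depth in the difference was not tested.

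Transcripts of myeloid receptors and regulators were sparse, and the granule genes did not differ in 1 common way between the cells that showed them and the rest. The Elane-rich cells were left out here. Cells with a UMI of Gfi1, a repressor needed for granulocyte fate (41 in library 2 and 25 in library 1), had 1.94 times (1.1 to 3.17) and 2.36 times (1.28 to 3.99) the Mpo of Gfi1-negative cells. Their Ctsg was 1.72 times (1.01 to 2.73) and 2.58 times (1.40 to 4.37) and their Prtn3 1.02 and 1.1 times as high. Cells with Csf1r, the macrophage colony-stimulating factor receptor gene (48 and 23 cells), had 2.64 times (1.80 to 3.75) and 2.19 times (1.09 to 3.96) the Ctsg of Csf1r-negative cells. Their Mpo was 1.24 times (0.636 to 2.17) and 3.32 times (1.96 to 5.30) and their Prtn3 1.05 times and 1.65 times as high. In Gfi1-positive and Csf1r-positive cells, Ctsg thus lay above the level of the negative cells in both libraries. Cells with Csf3r, the granulocyte colony-stimulating factor receptor gene (209 and 124 cells), had 1.37 and 1.59 times the Mpo and 1.15 and 1.19 times the Prtn3 of Csf3r-negative cells. Their Ctsg was 1.06 times (0.799 to 1.39) and 1.30 times (0.895 to 1.83), with intervals that held 1. In cells with Cebpa, a C/EBP factor of early myeloid fate (45 and 35 cells), Mpo was 0.545 times (0.176 to 1.28) and 1.56 times (0.823 to 2.68) that of Cebpa-negative cells. Their Ctsg was 1.04 and 1.84 times and their Prtn3 1.14 times (0.937 to 1.37) and 1.44 times (1.19 to 1.73) as high. In cells with Spi1, which encodes PU.1, Mpo was 0.967 and 1.73 times, Ctsg 0.988 and 0.785 times and Prtn3 0.987 and 1.23 times that of Spi1-negative cells. For Cebpa and Spi1 the libraries thus gave no common direction of Mpo. Cebpe-positive cells were almost all Elane-rich: outside the Elane-rich cells, 1 thinned cell in each library had a Cebpe UMI.

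Other genes listed with the granule programme moved with the 5 only in part. Cells with 10 or more summed UMIs of the 5 genes at 2000 UMIs (120 in library 2, 65 in library 1, among them 10 and 5 Elane-rich) were set against cells with none (682 and 401). Most of the summed UMIs over all thinned cells were of Prtn3. A fixed list of 13 primary granule partners was used, which also holds genes whose products are not of these granules, such as Calr and Clec12a. Of the 13 partners, 3 in library 2 and 4 in library 1 were 2-fold or more higher in the granule-high cells. Such a fold was found for 4.42% of 6037 genes in library 2 and 6.40% of 4362 in library 1. The partners' median was 1.46 in library 2 and 1.57 in library 1, beside 1.0 and 1.03 over all genes tested. Ctsc, whose product activates the serine proteases, stood at 1.54 (0.888 to 2.54) and 0.588 (0.153 to 1.62). Hp stood out, with 39 UMIs in granule-high cells and 4 in cells with none in library 2, and 21 and 2 in library 1. Calr, a chaperone of the endoplasmic reticulum that folds myeloperoxidase, was 2.35 and 2.50 times as high. Prss57, a serine protease gene of the same granules, was 1.46 and 2.03 times as high, Gstm1 1.36 and 2.17 times, and Clec12a, a myeloid lectin receptor gene, 2.23 and 1.31 times. Srgn, the proteoglycan core that packs granule proteases, stood at 0.946 and 1.03 times, and Serpinb1a, the inhibitor of elastase and cathepsin G, at 0.891 and 0.745 times.

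Without the Elane-rich cells, 2 of 13 partners in library 2 and 1 of 12 in library 1 were 2-fold or more higher, with medians of 1.34 and 1.20. In library 1, 1 partner was 2-fold or more lower, and in library 2 none was. The share over all genes was not taken without the Elane-rich cells, here or for the lists below, so these counts have no background. Calr was then 2.12 and 2.27 times as high. Ms4a6c, a monocyte gene of the same family as Ms4a3, was 4.91 and 2.06 times as high in granule-high cells without the Elane-rich cells. S100a8 had 1 UMI in granule-high cells against 2 in cells with none in library 2 and 0 against 1 in library 1 once the Elane-rich cells were out, so that its excess lay in those cells. With them it had 94 against 2 UMIs in library 2 and 20 against 1 in library 1.

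The remaining lists were thin in these cells, and the counts cover genes with at least 20 UMIs in granule-high cells and cells with none together. Of 7 monocyte genes 3 were measured in each library, and 2 were 2-fold or more higher in each. Ly6c2 had 37 against 6 UMIs in library 2 and 25 against 3 in library 1, and Ms4a6c 38 against 48 and 17 against 52, from groups of unequal size. Outside the Elane-rich cells Ly6c2 had 3 against 6 UMIs in library 2 and 9 against 3 in library 1, and 1 of 2 monocyte genes measured in each library was 2-fold or more higher. Lyz2, the lysozyme gene of monocytes and neutrophils, stood at 1.28 times (0.872 to 1.84) and 0.665 times (0.322 to 1.24). Of 10 regulators 4 were measured in library 2 and 3 in library 1, and 1 and 0 were 2-fold or more higher. Irf8 stood at 1.20 times (0.892 to 1.58) and 0.75 times (0.433 to 1.23) and Myb at 0.693 and 1.12 times, so neither was set apart by granule content. Of 7 inhibitor genes 3 were measured in each library, and 1 in library 2, Slpi at 2.55 times (1.22 to 5.06), was 2-fold or more higher and none in library 1, where Slpi stood at 1.95 times (0.637 to 5.07). With the Elane-rich cells left out, Slpi stood at 1.28 times (0.435 to 3.14) in library 2, and no inhibitor gene was 2-fold or more higher in either library.

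In the Elane-rich cells themselves the partners were mostly high. Of 13, 10 in each library were 2-fold or more higher in Elane-rich than in other cells, against 15.7% of 9587 genes in library 2 and 15.3% of 8656 in library 1. The median gene had no UMI in the Elane-rich cells, so that 1 or 2 UMIs sufficed for such a fold in many genes. Cd63, a granule membrane gene, was 7.48 times as high in library 2 and 3.82 times in library 1, Nkg7 5.43 and 6.54 times, Calr 3.94 and 4.41 times and Plac8 3.27 and 4.24 times. Srgn was 2.14 and 2.09 times as high, and Serpinb1a 1.5 and 0.550 times. A fixed list of 13 genes of later granules also holds other genes of later neutrophil stages, such as the calprotectin genes S100a8 and S100a9. Of these 13 genes, 3 in library 2 and 1 in library 1 had 20 UMIs or more in the comparison. Each of those was 2-fold or more higher in Elane-rich cells. S100a8 and S100a9 were among them, with 93 and 43 UMIs in the Elane-rich cells of library 2 against 15 and 6 in other cells. Others were rarer: over all kept cells Camp had 22 UMIs in library 2 and 4 in library 1, of which 14 and 0 lay in Elane-rich cells, and Ngp had 21 and 6, of which 12 and 0 did. Ltf had 2 UMIs in each library, and Retnlg and Cd177 had none. The chromosome neighbours of the granule genes were mixed. Prss57, near Prtn3 and Elane, had 2597 UMIs in library 2 and 1121 in library 1, whereas Cfd, next to Elane, had 4 and 3. Mcpt8, in the protease block that holds Ctsg, had 210 and 106 UMIs, whereas Gzmb and Cma1 in the same block had none, nor had Epx and Lpo beside Mpo. Of 14 listed neighbours 3 were measured in the comparison of granule-high cells with cells that had none, and 1 in library 2 and 3 in library 1 were 2-fold or more higher.

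The genes whose counts went most with the summed 5 across thinned cells, by Pearson's r on the log2(UMI + 1) scale over 4016 cells of library 2 and 2444 of library 1, were Hp (0.199 and 0.222), Ifitm1 (0.190 and 0.216), Ly6c2 (0.181 and 0.184) and Calr (0.192 and 0.152), followed by Ifitm3, S100a8, Mt1, Ldha, Ncl and Mif. Dntt was the lowest, at -0.334 and -0.289, followed by Malat1, Cox6a2 and Crip1. The members themselves were left out of these rankings. With the sum, Prtn3 stood at 0.940 and 0.943, Ctsg at 0.493 and 0.461 and Mpo at 0.458 and 0.452. Ms4a3 stood at 0.284 and 0.259 and Elane at 0.260 and 0.257, so likeness to the sum was mostly likeness to Prtn3. Without the Elane-rich cells Ifitm1 (0.217 and 0.240) and Ifitm3 led, and Ly6c2 and S100a8 were no longer among the first 10. These values are weak and come from sparse counts of the same cells. Of genes other than the members, Elane was most like S100a8 (0.646 and 0.699), Ly6c2 (0.657 and 0.642) and S100a9, and Ms4a3 most like Ly6c2 (0.535 and 0.609) and S100a8 (0.549 and 0.551), values that were not kept without the Elane-rich cells. Hp was then most like Elane, at 0.0600 and 0.190, and Ly6c2 most like Ms4a3, at -0.0067 and 0.222. Prtn3 was most like Ifitm1 (0.226 and 0.254), with Ctsg (0.262 and 0.250) and Mpo (0.250 and 0.233) at similar values. Elane and Ms4a3 stood at 0.755 and 0.800 with each other. Between members without the Elane-rich cells, Mpo and Ctsg stood at 0.317 in library 2 and 0.266 in library 1.

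Free RNA in the droplets gives a cell UMIs of genes it does not express, and cells so rich in granule transcripts would be a source of it. RNA from 1 source keeps its genes in 1 ratio. In Elane-rich cells there were 126 Elane UMIs for every 100 of Prtn3 in library 2 and 128 in library 1. In Dntt-zero cells outside them there were 0.397 and 0.444. If every Elane UMI outside the Elane-rich cells were free RNA of their composition, it would bring at most 0.323% of the Prtn3 found outside them in library 2 and 0.453% in library 1. The same limit was 1.66% and 3.07% for Mpo, 2.32% and 3.55% for Ctsg and 14.7% and 21.2% for Ms4a3. Mpo for every 100 Prtn3 UMIs stood at 3.45 in cells with more Car2 (2.63 to 4.45) and 9.04 in Dntt-zero cells (8.27 to 9.87) of library 2. In library 1 it stood at 7.20 (5.37 to 9.47) and 10.3 (9.27 to 11.4), with intervals that overlapped. Free RNA from cells poor in Elane was not bounded by this measure, and no class in the sort is known to lack Prtn3. The lowest share of Prtn3 among the larger lymphoid gates was 32.5% of Ly6d-positive cells in library 2 and 31.0% in library 1. These are point estimates from few cells, so they give only a rough upper limit for such a background.

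Between the libraries the 5 genes differed little. Each fold here is library 2 over library 1 in CPM over all kept cells. Prtn3 gave a log2 ratio of -0.0044 (-0.035 to 0.026), Mpo -0.15 (-0.24 to -0.06), Ctsg 0.39 (0.31 to 0.48), Elane 0.34 (0.20 to 0.47) and Ms4a3 0.25 (0.01 to 0.48). The median over 7526 genes was 0.12, so Prtn3 and Mpo lay below it and Ctsg, Elane and Ms4a3 above. None of the 5 was past 1.5-fold in either direction, against 4.78% of all genes. The value of Elane rested on the Elane-rich cells, 10 in library 2 and 5 in library 1, and was -0.28 (-0.79 to 0.24) without them. Ms4a3 without them was 0.11 (-0.28 to 0.51), Ctsg 0.37 and Mpo -0.12. With 1 library each, genotype and library cannot be told apart, and the spread between libraries of 1 genotype is unknown.

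**Figure D5:**
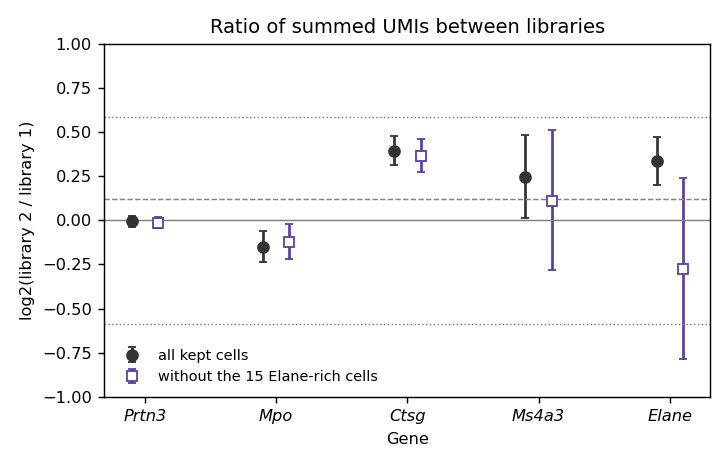
Log2 ratio of CPM, library 2 over library 1, for the 5 genes over all kept cells and without the 15 Elane-rich cells, with 95% conditional Poisson intervals. The solid line marks 0, the dashed line the median of all genes (0.12) and the dotted lines 1.5-fold. Elane stands at 0.34 with the Elane-rich cells and -0.28 without them, and the other genes move by less.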

How the data were processed

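The deposited file is 1 matrix of UMI counts per gene and barcode, made by the authors with Cell Ranger 1.1 on mm10, per the submitters' processing notes. The deposited counts are raw: whole numbers over 27998 genes and 7884 barcodes, with 4572 barcodes of library 2 and 3312 of library 1. For read filters, strand setting and doublet removal, the labels give no detail. The members and lists were chosen with earlier results of these data known.

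Barcodes with at least 500 genes and under 10% mitochondrial UMIs were kept, which removed 2 barcodes of library 2 and 59 of library 1. Kept cells ranged from 955 to 17515 UMIs in library 2 and from 850 to 13060 in library 1. Library sums of UMIs were expressed as CPM. Shares, bins and gates used cells thinned without replacement to 2000 UMIs (seed 1), which left out 554 shallower cells of library 2 and 809 of library 1. Intervals are exact Poisson, Clopper-Pearson or conditional Poisson at 95%, for counting error only. A count of 0 was taken to allow a share of up to 3 counts of the total. No count model was fitted, because each genotype had 1 library. Ratios between groups of cells were taken for genes with at least 50 UMIs in the cells compared (20 for genes of the fixed lists), and between libraries for genes with at least 200 UMIs. Calculations used Python 3.11.15 with numpy 2.4.6, scipy 1.17.1 and pandas 2.3.3. TMM factors from edgeR 4.0.16 in R 4.3.3 served as an alternative scaling. Scrublet (scanpy 1.11.5) called 1 doublet in each library, 0.0219% and 0.0307% of cells. That is too few for the caller to have worked, so its calls were not used and its scores served as an alternative. The calculations were tested on simulated data.

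The 5 genes are always named. Besides them, the text names the 10 genes highest and the 5 lowest in likeness to their sum, up to 3 for each gene, and genes of fixed lists. One gene that this rule selects is not reported here. Elane-rich cells and the detection ratio of 0.75 were chosen after values were seen.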

Additional observations from a re-analysis of the deposited data

Results flagged for a closer look

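The barcodes that the filter removed still held granule transcripts. In library 2 the 2 removed barcodes had 3 granule UMIs of 2201 UMIs, and in library 1 the 59 removed barcodes had 49 of 48394 UMIs. That is 10.13 granule UMIs per 10000 in the removed barcodes of library 1, against 17.1 in its kept cells, and it drew attention because these barcodes enter no other value here. All 49 were Prtn3, and at least 1 was found in 29 of the 59 barcodes. Mpo, Ctsg, Elane and Ms4a3 had none. Whether these barcodes were small cells or droplets with free RNA was not tested.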

How the results depend on the processing

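Values are given for library 2 and then library 1 where there are both. The share of cells with any of the 5 genes (83.0% and 83.6%) moved with depth and with the UMIs required: 75.1% and 77.7% at 1500 UMIs, 91.0% and 94.0% at 3000, 88.9% and 85.3% without thinning, 58.3% and 60.7% with 2 or more UMIs required, and 86.2% in library 1 with at least 1000 genes and under 5% mitochondrial UMIs. The share of Elane-positive cells with Mpo (51.4% and 61.9%) was 90.0% and 87.5% with 2 or more UMIs of each, and 33.3% in library 2 without the Elane-rich cells. The granule level in Dntt-high over Dntt-zero cells (0.365 and 0.405) was 0.341 and 0.334 at 1500 UMIs, 0.480 in library 1 at 3000, 0.402 and 0.472 without thinning, 0.296 and 0.313 at 5 or more Dntt UMIs, 0.412 and 0.466 without the 5% of cells deepest in UMIs, and 0.405 in library 2 without the Elane-rich cells. It was below 1 under all alternatives run.

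The log2 ratios of library 2 over library 1 depended on scaling and on few cells. With the stricter filter they were -0.29 for Mpo, 0.22 for Ctsg, 0.15 for Elane and -0.064 for Prtn3. With TMM they were -0.24 for Mpo, 0.30 for Ctsg and -0.097 for Prtn3, while the median of all genes was 0.03. At 2000 UMIs per cell they were -0.27 for Mpo, 0.23 for Ctsg and -0.072 for Prtn3. The mean of each cell's CPM gave 0.51 for Elane. Leaving out the deepest 5% of cells removed 6 of 10 Elane-rich cells of library 2 and all 5 of library 1, and gave 0.0084 for Mpo, 3.38 for Elane and 1.30 for Ms4a3, with 2 of the 5 genes past 1.5-fold. Without the Elane-rich cells, a choice made after seeing the data, Elane stood at -0.28. Of 70 alternative values of the detection ratio, 44 stayed within their interval, as did 45 of 80 of the shares held by the richest 5% of cells. Outside the Elane-rich cells, Elane and Ms4a3 had the fewest UMIs of the 5 genes, which limits their values there.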
